A study of Mus musculus with 8 samples.

Results

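Follicular helper T (Tfh) cells were examined in mouse spleen as the CD4 T cells in which at least 2 of 5 Tfh transcripts, Cxcr5, Pdcd1, Bcl6, Il21 and Tox2, were detected. The cells were chosen by these measured values. A member came from a library of total live cells and had more than 100 genes, at most 10% mitochondrial UMIs (unique molecular identifiers, each counting 1 captured transcript), at least 2 UMIs of Cd3d, Cd3e and Cd3g together, at most 1 UMI of Cd79a and Ms4a1 together, at least 1 UMI of Cd4, and none of Cd8a, Cd8b1 or Foxp3. The rule found 982 cells among 3835 Foxp3-negative CD4 T cells and 42183 filtered cells of the 4 total libraries; all 8 libraries of the study held 83704 filtered cells. Control library 1 gave 81 members, control library 2 gave 55, cKO library 1 gave 308 and cKO library 2 gave 538. They are called Tfh-gated cells here.

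The study compared cKO mice (Eif3e fl/fl, Cγ1Cre, Rosa26-YFP LSL) with littermate control mice that also carried Cγ1Cre and the YFP reporter. Eif3e encodes a subunit of the translation initiation factor eIF3, and Cγ1Cre acts in B cells once they are activated, so the T cells described here were not the intended target of the deletion. All mice were 2 months old, each library pooled cells of 2 to 3 mice, and each genotype had 1 total library in each of 2 batches. The labels name spleen, while the dissociation protocol mentions spleen and lymph nodes together.

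Tfh cells are the CD4 T cells that enter the B cell follicle and give B cells the signals for germinal centre growth and antibody class switching. CXCR5 brings them to the follicle, the repressor BCL6 sets their programme, PD-1 (Pdcd1) tunes their contact with B cells, and they deliver CD40 ligand, IL-21 and IL-4. As they leave the naive state they lose CCR7, the receptor that holds cells in the T cell zone.

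The 4 total libraries held 71894780 to 88513929 UMIs, and 42274 barcodes before filtering. The median Tfh-gated cell had 7780 and 6355 UMIs in the control libraries and 6397 and 7452.5 UMIs in the cKO libraries. Pairs of these libraries shared 62 to 98 barcodes, at most 0.933% of the smaller library. Among Tfh-gated cells, a simulation-based doublet caller marked 1 cell in each control library and none in the cKO libraries. Each genotype had n = 2 libraries. The tests of genes below rest on the spread between those libraries and on an estimate of spread shared across genes.

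The gate held a larger share of CD4 T cells in cKO mice. Of the Foxp3-negative CD4 T cells, 8.66% (81 of 935) and 6.92% (55 of 795) met the marker rule in the control libraries, against 32.9% (308 of 936) and 46.0% (538 of 1169) in the cKO libraries. Both cKO values lay above both control values. The mean share was 7.79% ± 1.23 in control and 39.5% ± 9.27 in cKO (SD, n = 2), 5.07 times as high. The exact two-sided permutation test gave p = 0.333, which is the smallest p that 2 libraries against 2 allow. The exact 95% binomial intervals, which cover counting error only, ran from 5.25% to 10.7% over the control libraries and from 29.9% to 48.9% over the cKO libraries.

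CD8 T cells, which should hold few Tfh cells, gave the background of the marker rule. The same 2-marker rule was met by 3.89% and 3.17% of CD8 T cells in control and by 5.98% and 7.01% in cKO, at median depths of 6860 to 8881 UMIs. Each CD4 T cell share lay above the CD8 T cell share of its library, by least in control. With at least 3 markers the background fell to 0.0972% and 0.0858% in control and 0.398% and 0.715% in cKO, and the CD4 T shares were 3.74% and 1.38% against 19.8% and 31.3%. Each cell was also thinned to 2000 UMIs, so that depth was equal, and the gate was read again. The shares at 2 markers were then 5.61% and 3.08% in control and 21.8% and 28.7% in cKO. Those of CD8 T cells were at most 1.02%.

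**Figure D1:**
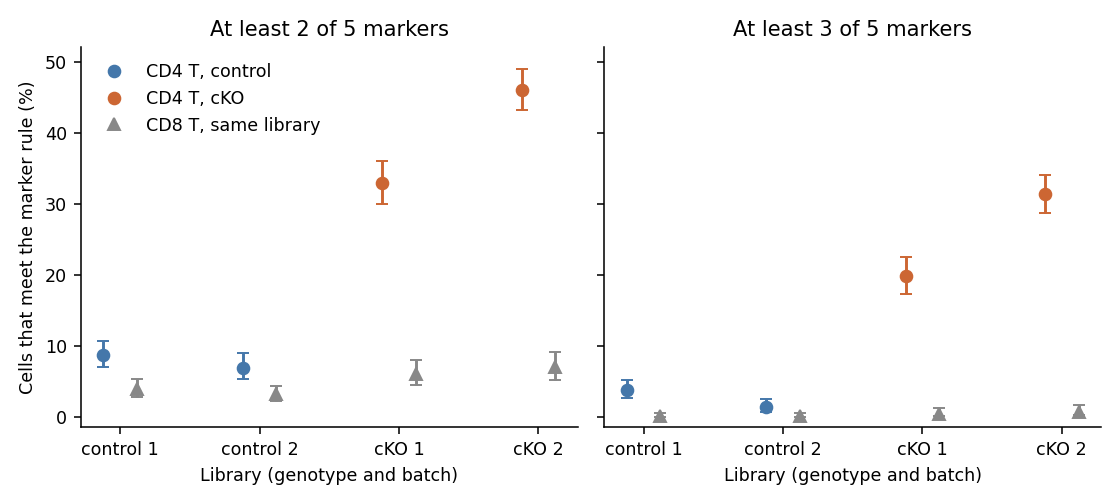
Share of cells that met the marker rule, in percent of each cell type, by library, for at least 2 markers (left) and at least 3 markers (right). Circles are Foxp3-negative CD4 T cells, triangles are CD8 T cells of the same library, and bars are exact 95% binomial intervals. The cKO circles stand at 32.9% and 46.0% on the left, and the control circles at 8.66% and 6.92%, near the triangles.

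The members differed in how many markers they held. In the control libraries 56.8% and 80.0% of Tfh-gated cells had exactly 2 markers, against 39.9% and 32.0% in the cKO libraries. All 5 markers were found in 3 and 0 control cells and in 10 and 44 cKO cells. Cells just inside the threshold held different pairs of markers. Cxcr5 with Bcl6 was the pair of 24 of 46 and 15 of 44 such cells in control, and of 12 of 123 and 14 of 172 in cKO. Pdcd1 with Tox2 was the pair of 4 of 46 and 3 of 44 in control, and of 38 of 123 and 71 of 172 in cKO. Just outside it, 283, 186, 257 and 227 CD4 T cells held a single marker.

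The levels of the 5 selecting genes are given as a description, since they chose the cells. Values are CPM, the UMI count of a gene scaled to the same total in the summed cells of each library, with the control libraries first. Pdcd1 stood at 179 and 140 in control and 475 and 467 in cKO, and was detected in 51.9% and 50.9% of control members and 86.7% and 92.9% of cKO members. Tox2, a high-mobility-group factor of the Tfh programme, stood at 207 and 123 against 329 and 276. Bcl6 stood at 193 and 147 against 268 and 217. The receptor gene Cxcr5 stood at 144 and 102 against 94.3 and 114, so its levels overlapped. Its detection was lower in cKO, in 75.3% and 63.6% of control members and 44.8% and 53.5% of cKO members. The cytokine gene Il21 stood at 40.7 and 9.32 against 33.8 and 48.1 and was detected in 16.0% and 3.64% of control members and 11.7% and 18.4% of cKO members.

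Il4, the gene of the cytokine that directs B cells to switch to IgG1 and IgE, showed the clearest difference between genotypes. A UMI of Il4 was detected in 4 of 81 and 2 of 55 Tfh-gated cells in control (4.94% and 3.64%), and in 186 of 308 and 418 of 538 in cKO (60.4% and 77.7%). The levels were 6.57 and 6.99 CPM in control and 442 and 819 in cKO, from 5, 3, 980 and 3881 UMIs. Both cKO libraries lay far above both control libraries. The log2 fold change was 6.53 ± 0.51 (standard error; adjusted p = 1.33e-04 over 9523 genes, edgeR), and Il4 had the smallest adjusted p of all genes tested. It kept its direction in all 15 alternative settings and passed in each that kept all 4 libraries. The highest adjusted p among those was 0.00203 (edgeR), without B cell UMIs. At 2000 UMIs a cell, among the same members as chosen at full depth, the detected shares were 1.23% and 1.82% against 40.6% and 55.8%. In cell types that should not make it, Il4 was detected in 0 of 1029 (up to 0.292% at that count) and 0.0858% of CD8 T cells in control, in 0.398% and 2.58% in cKO, and in 0.101% to 1.15% of B cells, at median depths of 4647 to 8881 UMIs.

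The share of cells with Il4 was higher the more Tfh markers a cKO cell held, up to 4. In cKO libraries 1 and 2, Il4 was detected in 3.50% and 10.1% of CD4 T cells with no marker and in 10.9% and 18.9% of those with 1. With 2 markers the shares were 44.7% and 56.4%, with 3 they were 64.7% and 80.8%, with 4 they were 78.1% and 93.5%, and with 5 they were 80.0% and 93.2%. From no marker to 2 markers median depth fell, from 6476 to 5930 UMIs in cKO library 1 and from 6853 to 6252 in cKO library 2. It then rose to 8728 and 11263 at 5 markers. The part of depth in the trend was not tested. In control, 4.35% and 4.55% of cells with 2 markers held Il4, and of the 46 control cells with 3 or more markers 2 did. The Tfh gate held 90.7% and 94.0% of the Il4 UMIs of all Foxp3-negative CD4 T cells in cKO and 62.3% and 63.8% of those of all cells in the library. In control the gate held 14.7% and 2.17% of the CD4 T cell Il4 UMIs.

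**Figure D2:**
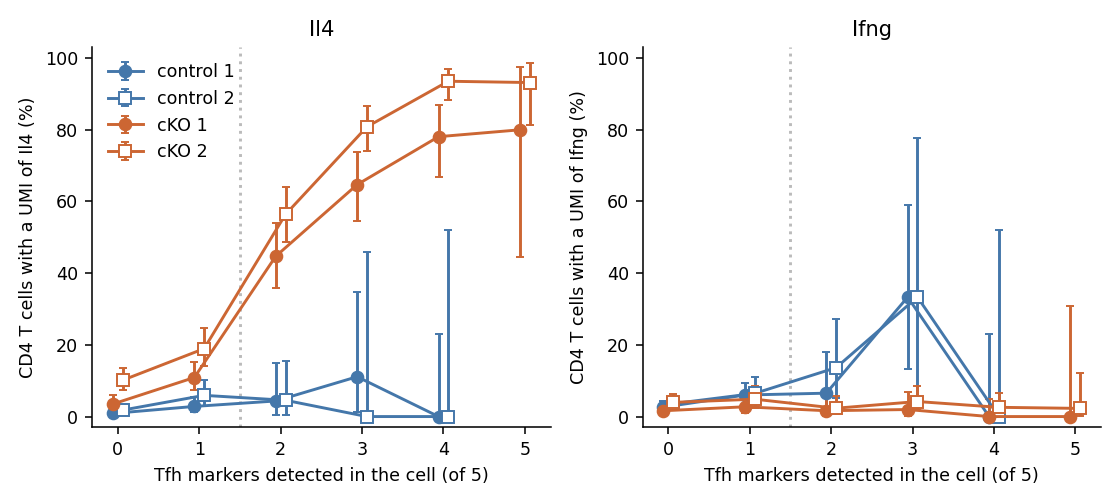
Percent of Foxp3-negative CD4 T cells with at least 1 UMI of Il4 (left) and Ifng (right) by the number of Tfh markers detected in the cell. Lines are the 4 libraries, bars are exact 95% binomial intervals, points with under 5 cells are left out, and the dotted line marks the gate. In cKO, Il4 runs from 3.50% and 10.1% with no marker to 80.0% and 93.2% with 5, while Ifng stays under 5%.

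The promoter windows of Il4 and Il21 are shown because theirs are the helper cytokines of Tfh cells and Il4 led the genotype comparison, while Il21 was a gene of the gate. Each runs from 250 bases before the RefSeq start to 50 after it (GRCm38.p6, minus strand, 5′ to 3′). Capitals mark GGAAA on either strand, the core bound by NFAT factors, which carry antigen receptor signals to cytokine genes. RefSeq gives Il4 a further, more 3′ start, whose window is not shown; it held 1 match of GGAAA and 0 of GATAA.
Il4, chr11:53618616-53618915: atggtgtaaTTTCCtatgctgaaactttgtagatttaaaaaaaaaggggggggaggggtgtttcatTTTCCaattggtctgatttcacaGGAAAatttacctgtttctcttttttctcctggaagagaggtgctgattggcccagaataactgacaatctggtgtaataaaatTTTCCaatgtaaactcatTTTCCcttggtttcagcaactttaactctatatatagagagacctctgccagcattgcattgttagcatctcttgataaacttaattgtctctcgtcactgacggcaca
Il21, chr3:37232587-37232886: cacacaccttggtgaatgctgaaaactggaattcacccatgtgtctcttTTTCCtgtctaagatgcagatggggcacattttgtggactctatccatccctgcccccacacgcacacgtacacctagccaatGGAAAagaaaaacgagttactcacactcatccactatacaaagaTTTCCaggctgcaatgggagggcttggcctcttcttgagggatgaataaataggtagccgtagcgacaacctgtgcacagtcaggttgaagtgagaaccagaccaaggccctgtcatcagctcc
The Il4 window held 5 matches of GGAAA and the Il21 window held 3. Of 32817 mouse promoter windows of this length, 61.3% held at least 1 match, 9.41% held 3 or more and 0.728% held 5 or more. The Il4 window also held 1 match of GATAA, the core read by GATA factors, which 25.4% of the windows hold, and no match of the AP-1 site TGANTCA, which 7.81% hold. A match of letters does not show that a factor binds there.

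The members' cytokines other than IL-4 were sparse. Ifng, the Th1 cytokine gene, stood at 27.6 and 30.3 CPM in control and 2.26 and 8.65 in cKO, without overlap (log2 fold change −2.27 ± 0.56, adjusted p = 0.0589, edgeR). It was detected in 12.3% and 14.5% of control members and 1.30% and 2.97% of cKO members, while 0.388% to 0.576% of B cells had a UMI. Il13, a type 2 cytokine gene next to Il4, was detected in 0 of 81 and 0 of 55 control members, which allows shares of up to 3.70% and 5.45%, and in 2.60% and 3.53% of cKO members, and it did not pass between genotypes (adjusted p = 0.068, edgeR). Il10 was detected in 2.47% and 7.27% of control members and 1.95% and 2.23% of cKO members, and Il2 in 7.41% and 3.64% against 1.95% and 0.372%. Il5 and Il17a gave no UMI in any of the 982 cells. Of the cKO members with Il21, 61.1% and 91.9% also held Il4, against 60.3% and 74.5% of those without Il21, and the cells with Il21 were deeper, at medians of 6722 and 10247 UMIs against 6381.5 and 7032.

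Across all genes, 119 of 9523 (1.25%) were higher and 105 (1.1%) were lower in cKO than in control Tfh-gated cells at an adjusted p under 0.05 (edgeR). The median log2 fold change of all genes was −0.01. With the batch as a replicate block, 1078 genes passed. That fit spends most of the 4 libraries on its terms, so its p-values rest largely on the spread shared across genes. The count was 348 without control library 1, 402 without control library 2, 435 without cKO library 1 and 247 without cKO library 2. In such a fit the lone library of its genotype is assumed to vary like the libraries of the other genotype. With at least 3 markers it was 89, and at 2000 UMIs a cell it was 9 of 2905 genes tested. For that fit the gate was read again after thinning, which left 24 and 14 control cells and 113 and 226 cKO cells. Depth and membership therefore changed together, and their parts were not tested.

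The genes that led the higher group besides Il4 were a mixed set of signalling and nuclear genes. Vdr, the vitamin D receptor gene, stood at 7.88 and 9.32 CPM in control and 150 and 235 in the cKO libraries (log2 fold change 4.49 ± 0.44, adjusted p = 3.00e-04, edgeR). Nav2, a cytoskeletal gene, stood at 129 and 102 against 1499 and 1091 (3.45 ± 0.34). Sostdc1, a secreted antagonist of BMP and Wnt signals that Tfh cells make, stood at 185 and 214 against 999 and 1533 (2.65 ± 0.34, adjusted p = 0.00178). These 3 genes were named for their small adjusted p in this comparison, so nothing is read from the lack of overlap between genotypes. Epas1, which encodes the hypoxia-inducible factor HIF-2α, stood at 7.88 and 2.33 against 102 and 95.2 (4.06 ± 0.45), and Dnase1l3, a secreted DNase, at 18.4 and 11.6 against 187 and 295 (3.93 ± 0.41). The control gates held 761512 and 429373 UMIs in all, so the control levels of Vdr and Epas1 rest on few UMIs.

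The other 6 named genes of the group rose by 2.49 to 4.15 on the log2 scale. They were Gna14, a G protein α subunit gene, the potassium channel gene Kcnq1, the inositol phosphatase gene Impa2, the zinc finger gene Tshz2, the phospholipase gene Plcb4 and the formin gene Fmn1. All 12 kept their direction in every alternative that tested them. At 2000 UMIs a cell, in the gate read again with 24 and 14 control cells, Vdr, Nav2, Dnase1l3, Epas1, Impa2 and Tshz2 missed the threshold. Without B cell UMIs Sostdc1, Impa2 and Fmn1 missed it, and with exactly 2 markers Gna14 and Sostdc1 did. Sostdc1 stood there at a log2 fold change of 3.01 and 2.53. Those control gates held 35 and 28 cells without B cell UMIs, and 46 and 44 with exactly 2 markers.

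**Figure D3:**
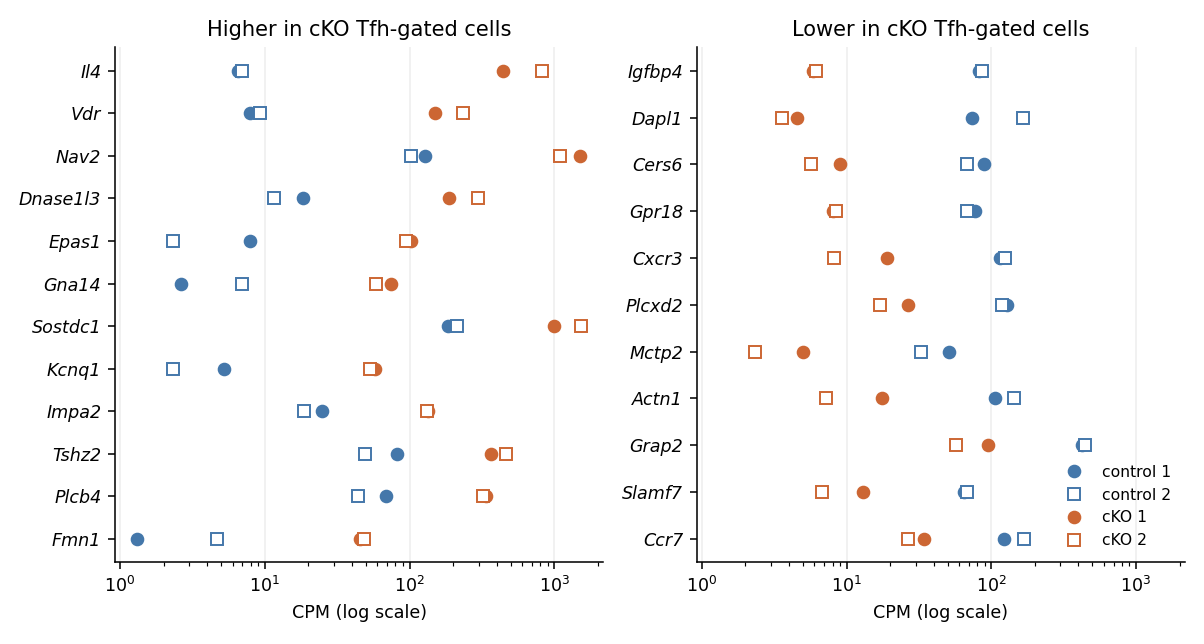
CPM in the summed Tfh-gated cells of each library, on a log axis, for the 12 genes higher and 11 of the 12 lower in cKO with the smallest adjusted p. Blue marks are control and orange marks are cKO libraries, filled for batch 1 and open for batch 2. The genes were chosen by their adjusted p in this comparison, so nothing is read from the lack of overlap between genotypes. Il4 lies at 6.57 and 6.99 against 442 and 819.

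Of 16 genes of naive T cells and of egress from lymphoid organs, all tested, 10 fell and none rose in cKO Tfh-gated cells, against 1.1% of all genes lower, and the median log2 fold change was −1.96. Ccr7, the receptor for the chemokines of the T cell zone, stood at 122 and 168 CPM in control against 34.3 and 26.6 in the cKO libraries (−2.27 ± 0.31, adjusted p = 0.00201, edgeR). Igfbp4, a binding protein for insulin-like growth factors, stood at 82.7 and 86.2 against 5.87 and 6.12 (−3.81 ± 0.34), and Dapl1, a gene of resting T cells, at 73.5 and 165 against 4.51 and 3.59 (−4.88 ± 0.45). All 3 genes were named for their small adjusted p in this comparison, so nothing is read from the lack of overlap between genotypes.

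The egress receptor gene S1pr1 stood at 189 and 231 against 76.2 and 77.7 (−1.46, adjusted p = 0.0194), and Klf2, the factor that maintains it, at 397 and 745 against 184 and 201 (−1.58, adjusted p = 0.0323). Both missed the threshold with at least 3 markers, with exactly 2, with Cxcr5 left out and without B cell UMIs. In that order Klf2 stood at −1.06, −1.08, −1.10 and −1.83. Klf2 also missed it at 2000 UMIs a cell (−0.98), and its value was −1.04 without control library 2. Bach2, a repressor that holds T cells in a resting state, fell by 2.59 on the log2 scale, and Selplg, the P-selectin ligand gene of the positioning list, by 1.69. Lef1 (−0.86), Satb1 (−1.94) and Foxo1 (−1.28) did not pass.

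The naive-gene count depended on the gate. Among cells with at least 3 markers, 3 of 13 tested naive and egress genes were lower, beside 35 of all 8205 genes. With exactly 2 markers 7 of 16 were, beside 58 of 7371. With Cxcr5 left out of the gate 4 of 15 were lower, beside 49 of 9117. At 2000 UMIs a cell none of 8 was, beside 6 of 2905, and with the batch block 15 of 16 were, beside 5.67% of all genes. The median ran from −1.02 with at least 3 markers to −2.50 without cKO library 1. Ccr7 missed the threshold with at least 3 markers and with Cxcr5 left out. The marker number and the CD8 T cell background of the gate, given above, moved with genotype, and their part in this difference was not tested.

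Of 13 tested genes of Th1 cells, the helper cells of intracellular infection, 4 were lower in cKO and none was higher, against 1.1% of all genes lower, with a median log2 fold change of −1.06 and 3 of the 13 above 0. Markers of CD8, NK, NKT and γδ T cells summed to 119 and 20.96 CPM in the control gates and 11.3 and 36.3 in the cKO gates. The part of these cells in the Th1 values was not tested. Cxcr3, a chemokine receptor gene of Th1 cells, stood at 116 and 123 CPM in control and 18.9 and 8.23 in cKO (−3.23 ± 0.39, adjusted p = 0.00147, edgeR). Tbx21, the gene of the Th1 factor T-bet, stood at 59.1 and 18.6 against 2.71 and 3.80 (−3.60 ± 0.54, adjusted p = 0.00432, and 0.123 without control library 1). Nkg7, a cytotoxic granule gene, stood at 98.5 and 55.9 against 13.5 and 19.6 (−2.24 ± 0.36), and Eomes, a factor of memory and killer T cells, at 81.4 and 34.9 against 14.9 and 15.4 (−2.01 ± 0.39, adjusted p = 0.0171).

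Eomes was the least stable of these, reaching a log2 fold change of 0.64 among cells without B cell UMIs. Cxcr3 passed in all 14 alternatives that tested it. Stat4, which carries the IL-12 signal, did not pass (0.36). Among cells with at least 3 markers 2 of 8 tested Th1 genes were lower, beside 35 of all 8205 genes. At 2000 UMIs none of 3 was, beside 6 of 2905. Without control library 1 the log2 fold change was −3.25 for Cxcr3 and −2.45 for Tbx21.

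Of 9 tested type 2 genes, Il4 and Gata3 rose and Il4ra fell, against 1.25% of all genes higher and 1.1% lower. Gata3, the gene of the factor that opens the type 2 cytokine locus, stood at 99.8 and 88.5 against 261 and 232 (1.36 ± 0.30, adjusted p = 0.0322, edgeR), without overlap. It missed the threshold without either control library, with at least 3 markers, with Cxcr5 left out, without B cell UMIs and at 2000 UMIs a cell. Il4ra, the receptor chain for IL-4, stood at 48.6 and 30.3 against 10.8 and 16.0 (−1.58 ± 0.38, adjusted p = 0.0481). It passed in 5 of 14 alternatives and not without control library 1 or without cKO library 1. Stat6, which carries the IL-4 signal, stood at 46.0 and 51.2 against 47.4 and 50.7 (0.01, adjusted p = 0.999).

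Most signals to B cells and most of the Tfh programme did not pass between the genotypes. Before adjustment, 11 of 28 Tfh identity genes outside the gate and 5 of 12 signals to B cells had p under 0.05 (edgeR), beside 11.3% of all genes. Icos, a costimulatory receptor gene of Tfh cells, stood at 474 and 394 against 488 and 356 (−0.07 ± 0.30, adjusted p = 0.995), and Cd40lg, the CD40 ligand gene, at 219 and 412 against 256 and 322 (−0.13 ± 0.34, adjusted p = 0.977). Both overlapped between genotypes. Sh2d1a, the gene of the adaptor SAP that holds T cells on B cells, stood at 362 and 196 against 623 and 896 (1.42 ± 0.36, adjusted p = 0.0623), and Maf, a factor that drives Il21 and Il4, at 376 and 298 against 658 and 628 (0.91 ± 0.30, adjusted p = 0.172). Tcf7, the gene of TCF-1, overlapped at 649 and 578 against 534 and 635 (−0.09).

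Of 28 tested Tfh identity genes outside the gate, 2 rose, Sostdc1 and Batf, and none fell, against 1.25% of all genes higher and 1.1% lower, with a median log2 fold change of 0.25. Batf, an AP-1 partner that Tfh cells need, stood at 179 and 107 against 351 and 548 (1.62 ± 0.36, adjusted p = 0.0342, edgeR) and missed the threshold without control library 2, without cKO library 2, with at least 3 markers, with Cxcr5 left out, without B cell UMIs and at 2000 UMIs a cell. With the batch block 10 identity genes rose and 4 fell, beside 5.65% of all 9523 genes higher and 5.67% lower in that fit. Of 12 tested signals to B cells, Il4 and Areg rose and Fasl, the gene of the death ligand, fell, beside the same shares of all genes (1.25% and 1.1%). Areg, which encodes the growth factor amphiregulin, stood at 34.1 and 11.6 against 157 and 215 (2.90 ± 0.42, adjusted p = 0.00332, and 0.83 with adjusted p = 0.812 at 2000 UMIs a cell), and Fasl at 47.3 and 37.3 against 11.3 and 7.60 (−2.24 ± 0.37, adjusted p = 0.00675).

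Several lists gave no call by edgeR in Tfh-gated cells. Of 23 antigen receptor response genes 0 passed, with 12 under 0.05 before adjustment and 1 passing in DESeq2 (median log2 fold change 0.25). Of 24 cell cycle genes 0 passed, with 6 under 0.05 before adjustment and 2 passing in DESeq2 (median −0.66). Of 18 interferon-stimulated genes 0 passed, with 6 under 0.05 before adjustment and 0 in DESeq2 (median 0.50). Of 14 glycolysis genes 0 passed, with 2 under 0.05 before adjustment and 0 in DESeq2 (median 0.16). Of all 9523 genes 11.3% had an unadjusted p under 0.05. With the batch block 14 antigen receptor response genes, 9 of them higher, and 11 cell cycle genes, all lower, passed, beside the same 5.65% of all genes higher and 5.67% lower. Some cell cycle genes were lower without control library 1 or without cKO library 2, in fits with a lone library of its genotype. Cells with at least 2 UMIs over 6 proliferation genes made up 13.6% and 10.9% of control members and 9.74% and 14.9% of cKO members, so the groups overlapped. Among regulatory genes, tested in cells without Foxp3, 3 of 9 rose, against 1.25% of all genes higher, with a median of 1.16. In marker-free cells 3 of 9 rose too, against 0.21% of all genes there, with a median of 2.33, and the interaction called 0 of 12 by edgeR, with 7 at an unadjusted p under 0.05 and 0 by DESeq2. Ikzf2, which encodes Helios, stood at 905 and 468 against 2317 and 1717 (1.53 ± 0.36, adjusted p = 0.0465), and Tnfrsf4, which encodes OX40, at 88.0 and 116 against 245 and 424 (1.71 ± 0.36, adjusted p = 0.0265). Ikzf2 missed the threshold without control library 2, and Tnfrsf4 without control library 1 and without cKO library 2. Both missed it with at least 3 markers, with Cxcr5 left out, without B cell UMIs and at 2000 UMIs a cell.

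The Tfh-gated cells were also set against CD4 T cells of the same libraries with none of the 5 markers (571, 554, 371 and 404 cells). Tfh markers chose both sets, so genes that vary with those markers differ by the choice of cells. The differences are given as a description. In 1 fit with library as a block, 827 of 10985 genes (7.53%) were higher and 652 (5.94%) lower in control, and 1722 (15.7%) were higher and 1526 (13.9%) lower in cKO. The cKO count was 2084 without cKO library 1 and 1491 without cKO library 2, and without the library block the counts were 365 in control and 1472 in cKO. Of the genes higher in control, 594 were also higher in cKO, which is 71.8% of the control list and 34.5% of the cKO list. Of those lower, 520 were shared, 79.8% of the control list and 34.1% of the cKO list.

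Of the 28 tested Tfh identity genes, 18 were higher and 1 lower in control, and 19 were higher and 1 lower in cKO. Their median log2 differences were 1.30 and 1.66, against −0.02 and 0.01 over all genes. Sostdc1 was at 0.484 and 0 CPM in marker-free control cells and 13.7 and 18.7 in marker-free cKO cells, far under the Tfh-gated cells (6.07 higher in cKO on the log2 scale, adjusted p = 6.91e-15). Tox, a factor related to Tox2, was higher by 1.28 in control and 2.45 in cKO, and Maf by 2.80 and 2.68. Tbc1d4, a trafficking gene, was higher by 3.13 and 3.57, and the inhibitory receptor gene Tigit by 3.69 and 3.43. All 16 naive and egress genes were lower in the gate in both genotypes, with medians of −1.29 in control and −3.09 in cKO.

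The remaining genes that led this comparison in cKO were Dgki, Eea1, Stx11 and Npy among the higher, and Satb1, Bach2, Pde3b, Ust, Gramd3, Cmah and Klf2 among the lower. Dgki, a diacylglycerol kinase gene, was at 1.61 and 3.59 CPM in marker-free cKO cells and 133 and 268 in the gate. Eea1, an endosome tether gene, was at 50.6 and 66.4 against 843 and 980. Npy, which encodes neuropeptide Y, gave no UMI in either control set and 48 and 1681 UMIs in the cKO gates, most of it in cKO library 2. Its adjusted p between genotypes was 0.775, and DESeq2 did not call it between the gate and the marker-free cells (0.353). Satb1, a chromatin organiser of resting T cells, stood at −3.41 in the cKO gate against marker-free cells and Bach2 at −3.11, both called lower.

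**Figure D4:**
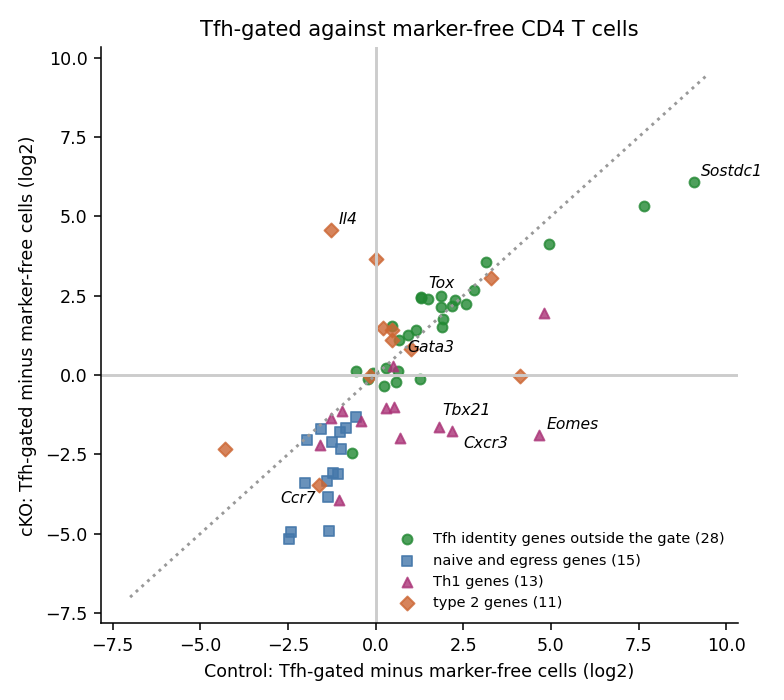
Log2 difference between Tfh-gated and marker-free CD4 T cells in control (horizontal) and in cKO (vertical) for genes of 4 lists; each point is a gene and the dotted line marks equal differences. Sostdc1 lies at the upper right; Tbx21, Cxcr3 and Eomes lie to the right of 0 in control and under 0 in cKO; and the naive genes lie at the lower left, mostly under the dotted line.

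A few genes of Th1 and cytotoxic cells were called in opposite directions in the 2 genotypes. Tbx21 was higher in the gate than in marker-free cells by 1.81 in control and lower by 1.64 in cKO, Cxcr3 was higher by 2.18 and lower by 1.75, and Eomes was higher by 4.65 and lower by 1.88, all at an adjusted p under 0.05 (edgeR). In all, 16 of 10985 genes were called in both genotypes in opposite directions, beside 594 called higher in both and 520 called lower in both. The 16 were not all Th1 or cytotoxic genes, and they included Samhd1, Arhgef11, Fam3c and Lpp. Slamf7, a receptor gene of cytotoxic and Th1 cells, was also among them, at 1.97 and −1.05, and so were Kcnq1, at −1.70 and 1.80, and Klra1, an NK cell receptor gene, at 4.82 and −6.01. Over the Th1 list, 4 of 14 genes were higher and 1 lower in control, and 0 higher and 9 lower in cKO, against 7.53% of all genes higher and 5.94% lower in control and 15.7% and 13.9% in cKO. Of 7 tested CD8, NK, NKT and γδ T cell markers, 0 were called in control by edgeR, with 2 at an unadjusted p under 0.05 (median 0.68). In cKO 6 were lower (median −2.91), beside the same shares of all genes. In the interaction 2 of the 7 were lower (median −3.43), against 1.68% of all genes. Their part in the Th1 values was not tested.

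The test of the difference itself, the genotype fold change in Tfh-gated minus that in marker-free cells, called 99 genes (0.901%) higher and 185 (1.68%) lower of 10985. Without the library block 2 genes were called, Eomes and Tm6sf1, and without cKO library 2 it was 144. The naive and egress list gave 14 of 16 genes lower and the Th1 list 5 of 14, and without the library block 0 and 1. With at least 3 markers 6 naive and egress genes were lower and 1 was higher, beside 165 lower and 93 higher of all 10803 genes. The interaction was −3.93 for Cxcr3 (adjusted p = 5.04e-04, edgeR) and −3.45 for Tbx21 (0.00321). Tbx21 missed the threshold with exactly 2 markers, and both genes missed it at 2000 UMIs a cell, where Cxcr3 stood at −2.25. Both also missed it without the library block. The interaction was positive for Tox (1.17, adjusted p = 5.23e-05, edgeR), the inhibitory receptor gene Btla (1.08, 0.00103) and the chemokine receptor gene Cxcr4 (1.22, 0.00122). A positive value can come from a rise in the gate or a fall in marker-free cells, so it does not show a rise in the gate. For Cd40lg the interaction was 0.68 (0.0337), from a genotype log2 fold change of −0.13 in the gate and −0.74 in marker-free cells, neither called, and it passed in 6 of 16 alternatives. For Tbx21 the interaction was −2.24 without control library 1 and −3.26 without cKO library 2, and for Cxcr3 it was −3.56 and −3.21.

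For Il4 the interaction was 5.84 ± 1.08 and did not pass (adjusted p = 0.158). It passed in 8 of 16 alternatives, with adjusted p from 2.05e-28 to 0.507, and its value was 3.34 without control library 2, 3.36 without B cell UMIs and 9.31 at 2000 UMIs a cell. In marker-free cells Il4 stood at 2.42 and 34.2 CPM in control and 8.83 and 39.5 in the cKO libraries (log2 fold change 0.46, adjusted p = 0.999). The value of 34.2 came from 112 UMIs in 10 cells of control library 2. Marker-free cells as a whole gave 21 genes (0.21%) higher and 2 (0.02%) lower of 9980 in cKO, and 606 with the batch block; 12 of these 23 were also called in Tfh-gated cells, 11 of them in the same direction. Without 1 library at a time the count ran from 43, without cKO library 2, to 134, without control library 2; it was 123 without control library 1 and 123 without cKO library 1.

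Eif3e itself was not called in the gate. Its level there was 284 and 312 CPM in control and 223 and 276 in cKO (−0.27 ± 0.29, adjusted p = 0.888, edgeR), and in marker-free cells at 310 and 352 against 309 and 352. A 3′ count need not drop where another part of a gene is deleted.

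Transcripts of other cells were present in the gate. The 16 B cell markers, all detected in every library, summed to 1106 and 1272 CPM in control and 1474 and 1412 in cKO, and of 13 tested 0 were called between genotypes by edgeR, with 2 at an unadjusted p under 0.05. Ighg1, the IgG1 heavy chain gene, gave 0 and 0 UMIs in the control gates and 36 and 75 in the cKO gates, at least 6.34 times as high as 3 UMIs over both control gates would allow, and marker-free cells held 1.94 and 0.916 against 18.9 and 16.5 CPM of it. The 10 myeloid and erythroid markers summed to 751 and 808 in control and 51.9 and 34.0 in cKO; of 4 tested 0 were called by edgeR, with 1 at an unadjusted p under 0.05. Against marker-free cells 4 of 8 tested were higher in control (median log2 fold change 2.04), beside 7.53% of all genes, and 0 of 8 were called in cKO by edgeR, with 1 at an unadjusted p under 0.05 (median 0.034). In the interaction 2 of the 8 were lower (median −1.56), beside 1.68% of all genes. Of the 565 myeloid UMIs over 8 genes in the gate of control library 1, a single cell held 536, and 2 cells of control library 2 held 170 and 157 of 337. Without cells with at least 3 such UMIs, 209 of 9373 genes passed, 88 of them lower. In that fit 10 of 16 naive genes and 3 Th1 genes were lower. The CD8, NK, NKT and γδ T cell markers given above summed to 47.5 and 38.8 CPM in marker-free control cells and 71.1 and 108 in marker-free cKO cells. In the gate they had Cd8a and Cd8b1 at 0 by the rule; Trdc, the γδ receptor constant gene, was called lower (−4.00, adjusted p = 0.05 after rounding). Without cells that held a UMI of 6 B cell genes, 60 of 7625 genes passed, 31 of them lower. In that fit 7 of 16 naive genes and 2 of 11 Th1 genes were lower.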

How the data were processed

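Single cells of mouse spleen were profiled with a droplet 3′ kit in 8 libraries (4 groups of 2), of which the 4 total libraries were compared; YFP+ libraries were read only for the gate. The authors deposited whole-number UMI counts per gene and cell, with no normalization; their processing notes name the builds GRCm38 and mm10, and no source used here names the aligner. In the study, cells with few UMIs or genes or over 10% mitochondrial UMIs were removed, replicates were merged and no doublet step is named. Here the gene and mitochondrial filters were applied again and no doublet was removed in the main analysis; a caller that scores cells against simulated doublets (scikit-learn 1.9.0, Python 3.11.15) marked 1.56% to 2.73% of cells, and leaving them out was an alternative.

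Counts were summed per library over Tfh-gated cells and over CD4 T cells with none of the markers. The sums were tested with the quasi-likelihood test of edgeR 4.0.16 (TMM scaling, filterByExpr, R 4.3.3), Benjamini-Hochberg adjusted over all genes tested, with a threshold of 0.05. The 14 genes the gate reads were left out of the tests. Levels are CPM of all UMIs in a sum, while fold changes use the TMM-scaled totals; the standard error is the absolute log2 fold change divided by the square root of F. The genotype comparisons had no batch term, and the comparison of Tfh-gated with marker-free cells, with its interaction, had library as a block. Replicate numbers are the batch numbers of the labels, so they pair control with cKO; same-batch deviations from the group means correlated at 0.310 in Tfh-gated and 0.412 in marker-free cells. Pools of mice are the replicates. Intervals and floors (3 counts) cover counting error only.

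The genes named are the 12 higher and 12 lower with the smallest adjusted p (gate genes, receptor segments, mitochondrial genes and unnamed models left out), called or abundant members of 21 gene lists, and 11 genes always shown; the genes in opposite directions, Il13, Il10, Il2, Il5 and Il17a, Cd80 and the interaction examples were chosen after their values were seen. Members and lists were chosen with earlier results of these data known. Alternatives were DESeq2 1.42.0, RLE scaling, no filter on low counts, the batch block, stricter or other gates, no doublets, no B cell UMI, thinning to 2000 UMIs and leaving out each library. After thinning the gate was read again for the tests and shares, while Il4 detection at 2000 UMIs used the members chosen at full depth. Gates of exactly 2 markers and without myeloid cells were added after seeing the data. The tests were tried on simulated counts with known changes. Promoters came from RefSeq (GRCm38.p6), where both symbols matched. Results that rest on some genes are not reported here.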

Additional observations from a re-analysis of the deposited data

Results flagged for a closer look

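The genotype difference in Tfh-gated cells differed from that in marker-free CD4 T cells, by the interaction test in edgeR, for 19 of the genes named for the genotype comparison or always shown, against 0.901% of all genes higher and 1.68% lower in that test. Most of these genes were named for their genotype difference in Tfh-gated cells, which is part of the interaction, so nothing is read from their number. The interaction, on the log2 scale, was positive for Nav2 (1.69), Epas1 (2.93), Kcnq1 (3.50), Impa2 (1.53), Plcb4 (1.20) and Cd40lg (0.68). It was negative for Sostdc1 (−2.99), which was higher in cKO in both cell sets and by more in the marker-free cells, where control held almost no transcript. The Sostdc1 value was −5.93 without control library 1 and −2.18 without control library 2. Among settings with all 4 libraries and the library block, it missed the threshold in DESeq2 and without B cell UMIs. It also missed it without cells with myeloid UMIs and with exactly 2 markers.

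Among genes of naive or resting T cells it was negative for Igfbp4 (−2.70), Dapl1 (−3.59), Actn1 (−2.50) and Ccr7 (−1.96). The same held for Grap2, an adaptor of the T cell receptor (−1.89), Cers6, a ceramide synthase (−2.69), Gpr18 (−2.74), Plcxd2 (−2.33) and Mctp2 (−2.99). Of the Th1 genes, Cxcr3 (−3.93), Slamf7 (−3.03) and Tbx21 (−3.45) were negative. Without the library block none of these 19 passed; that fit called 2 genes in all, at 675 genes with an unadjusted p under 0.05, and DESeq2 with the block called 146.

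In the YFP+ libraries, which the comparisons do not use, the same gate took 26.5% (35 of 132) and 33.3% (5 of 15) of Foxp3-negative CD4 T cells in cKO, and 10.6% (11 of 104) and 0 of 14 (which allows up to 21.4%) in control. Il4 was detected in 22 of the 35 and 4 of the 5 cKO cells and in 1 of the 11 control cells. These libraries were sorted for a reporter that Cre switches on in B cells, so their T cells are few.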

How the results depend on the processing

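With the batch as a replicate block, 1078 genes instead of 224 passed between genotypes in Tfh-gated cells and 606 instead of 23 in marker-free cells. Without the replicate block, 1472 instead of 3248 passed between Tfh-gated and marker-free cells in cKO, 365 instead of 1479 in control, and 2 instead of 284 in the interaction. DESeq2 gave 1554 in cKO, 864 in control, 146 in the interaction and 36 in marker-free cells. With no filter on low counts 563 passed in Tfh-gated cells, 510 in the interaction and 150 in marker-free cells. With at least 3 markers 89 passed between genotypes in the gate. With Cxcr5 left out it was 98, and 173 in the interaction. Without B cell UMIs it was 60, with 702 in the control comparison and 134 in the interaction. At 2000 UMIs a cell the gate was read again and held 24 and 14 control cells, so depth and membership moved together. The count between genotypes in the gate was then 9, with 1057 in cKO, 476 in control, 54 in the interaction and 67 in marker-free cells. With exactly 2 markers it was 122, with 1876 in cKO, 861 in control and 158 in the interaction. A comparator with at most 1 marker gave 41 instead of 23 genes between genotypes within the comparator cells. Leaving out 1 library at a time gave 247 to 435 genes in Tfh-gated cells, 43 to 134 in marker-free cells, 1491 to 4089 in cKO, 1048 to 1644 in control and 144 to 397 in the interaction. The share difference of 31.7 points was 8.70 with exactly 2 markers, 20.9 at 2000 UMIs, and 25.1 to 38.2 leaving out 1 library at a time. Of 3044 values of single named genes under the alternatives, counted for the genotype comparison in Tfh-gated cells and for Tfh-gated against marker-free cells in cKO alone, 2680 kept their direction and side of the threshold, 112 changed sign but passed in neither setting, 80 came to pass, 167 no longer passed and 5 changed sign with a call. These 5 were Eomes without B cell UMIs (0.64) and Tnfrsf4 at 2000 UMIs (−0.016) between genotypes, and, against marker-free cells in cKO, Itga4 with exactly 2 markers (0.43), H2afz at 2000 UMIs (−0.35) and Il10 at 2000 UMIs (−3.74). Fewer genes were tested at 2000 UMIs and in smaller gates. Otherwise the cause was not tested. The control gates, with 81 and 55 cells, limit the genotype comparison in Tfh-gated cells and the interaction.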

Other observations

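Cd80, the ligand gene for CD28 and CTLA-4 that is better known from antigen-presenting cells, was higher in the Tfh-gated cells of cKO mice. It was chosen after its values were seen. It stood at 23.6 and 6.99 CPM in control and 135 and 149 in the cKO libraries (log2 fold change 3.04 ± 0.41, adjusted p = 0.00235, edgeR), from 18, 3, 299 and 704 UMIs. It was also higher in marker-free CD4 T cells, at 1.21 and 1.53 against 13.3 and 9.70 (3.04, adjusted p = 0.031), and the interaction was 0.06 (adjusted p = 1.00). In both genotypes the gate held more of it than marker-free cells, by 3.37 in control and 3.43 in cKO. Among cells without B cell UMIs the log2 fold change in the gate was 2.26 (adjusted p = 0.045), and at 2000 UMIs a cell it was 1.59 (adjusted p = 0.565). It was 4.34 without control library 1, 2.58 without control library 2, 5.18 with exactly 2 markers and 1.94 with at least 3.

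Il1r1, the IL-1 receptor gene, stood at 3.94 and 11.6 CPM in control and 37.0 and 69.4 in cKO Tfh-gated cells (2.95 ± 0.56, adjusted p = 0.0187, edgeR). Its control levels rest on few UMIs. Lair1, an inhibitory collagen receptor gene, stood at 13.1 and 25.6 against 2.71 and 0.633 (−3.68 ± 0.78, adjusted p = 0.0286), on 10, 11, 6 and 3 UMIs. Lag3, an inhibitory receptor gene, overlapped between genotypes in the gate, at 68.3 and 46.6 against 51.4 and 82.7, while its interaction was −2.64 (adjusted p = 0.00756), since marker-free control cells held 1.21 and 0.916 and marker-free cKO cells 3.61 and 12.6.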
